A study of Mus musculus with 18 samples.

Results

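The 33 genes described here encode the blood coagulation cascade, its inhibitors and the fibrinolytic system, and were taken by gene symbol from the expression tables of mouse liver and of RAW264.7 macrophages, a mouse macrophage line. All 33 symbols were found in both tables, which list 21441 genes each. Transcript levels were measured by RNA sequencing in 18 libraries, 3 in each of 3 groups per tissue, called Control, LPS and LPS+MIC-1. The liver experiment used wild type male C57BL/6 mice, 6 per group. They received saline (Control) or lipopolysaccharide (LPS, a bacterial cell wall component that sets off endotoxaemia) at 10 mg/kg into the peritoneum. The LPS+MIC-1 group received the same LPS after 3 days of oral Moringa isothiocyanate-1 (MIC-1, a plant isothiocyanate) at 80 mg/kg in 10% DMSO. The study describes gavage with either MIC-1 or vehicle (10% DMSO) ahead of the injection, for LPS and saline alike. Livers were taken 16 h after the injection. The 9 liver libraries came from 9 mice, 3 per group, and the ages of the mice are not given in the sources used here. The RAW264.7 cells received solvent, LPS, or LPS with 10 µM MIC-1. Labels of the macrophage libraries give the strain C57BL/6, the genotype wild type and the text of the mouse protocol. No group received MIC-1 alone, so its effect is seen here on top of LPS only.

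Coagulation is a chain of serine protease activations that starts with tissue factor and factor VII or with the contact proteins, passes through factor X and prothrombin, and ends with thrombin cutting fibrinogen into fibrin. Antithrombin, protein C with its cofactor protein S, and other inhibitors hold it back, and plasmin, made from plasminogen by the activators tPA and uPA, dissolves the clot. Hepatocytes make most of the circulating factors, and fibrinogen is a classical acute-phase protein that rises with interleukin-6, whereas tissue factor, thrombomodulin, the endothelial protein C receptor and the uPA receptor are made by endothelial cells and leukocytes. In bulk tissue, fewer cells of a type and less RNA per cell cannot be told apart.

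Values are FPKM, fragments per kilobase of transcript scaled for library size, as deposited. The low values of macrophage LPS libraries 1, 2 and 3 put the library size behind the scaling at about 13925000, 22175000 and 14900000. Their estimated reads were about 20400000, 20500000 and 21600000, so the scaling is not to the mapped fragments alone. Changes are log2 fold changes of FPKM + 0.5 with their standard error (SE), from 1 limma fit per tissue over genes with a mean FPKM above 1, and a gene is called changed at an adjusted p below 0.05. The spacing of low FPKM values puts the depth at about 4300000 to 17600000 reads in liver and 17100000 to 22100000 reads in macrophages, and the 3 liver controls were the shallowest, with about 10000000, 4400000 and 4300000 reads. Macrophage LPS library 2 lay at the control level for the LPS-responsive genes of the set (Procr, 137, 14.8 and 132 FPKM in the LPS libraries against 5.62, 14.9 and 6.75 in controls), and liver LPS library 2 lay between the controls and the other LPS libraries for many genes (Klkb1, 8.05, 62.4 and 6.33 against 125, 146 and 154), so results that rest on them are given with and without LPS library 2. Hepatocyte markers in liver summed to 41220 to 81300 FPKM in controls, 34160 to 45290 with LPS and 34610 to 44040 with LPS+MIC-1. Of these 6 genes, Cyp3a11 and Cps1 were called lower with LPS (log2 -1.45 and -1.79), none was called higher and 4 were not called. Macrophage markers summed to 10890 to 13170 FPKM in the macrophages, most of it Lyz2 (8726 to 10746 FPKM). Within that sum Adgre1 read 278, 41.2 and 290 FPKM with LPS against 37.7, 42.25 and 37.2 in controls. Csf1r read 109, 409 and 108 against 423, 406 and 419, and neither was called with all libraries. Neutrophil markers in liver summed to 36.2 to 52.4 FPKM in controls, 318 to 394 with LPS and 180 to 436 with LPS+MIC-1, macrophage markers (mostly Cd14, itself an LPS-responsive gene) to 27.7 to 41.7, 122 to 618 and 122 to 431, and endothelial markers to 42.7 to 48.8, 33.2 to 45.2 and 42.6 to 47.4 FPKM. Within these sums the markers did not move together with LPS: Clec4g and Kdr fell while Lyve1 and Pecam1 rose among the endothelial genes (log2 -3.32, -1.37, 1.52 and 2.04), and Cxcr2 fell among the neutrophil genes (log2 -2.30), all called. The part of these cells in the changes below was not tested.

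LPS changed the liver set in both directions. Of the 29 genes tested in liver, 11 rose and 5 fell with LPS, and 13 were not called, against 19.2% of all 10147 tested genes called higher and 15.5% called lower. The median log2 fold change was 0.50 over the 29 genes and 0.15 over all tested genes. The 3 fibrinogen genes, Cpb2, Serpina10, Procr and Plaur rose most, whereas Klkb1, Proz, Plau, Proc and F5 fell. Procr, Plaur and Thbd had control means of 0.786, 0.6 and 0.31 FPKM. They passed the filter on mean FPKM through the LPS and LPS+MIC-1 groups, so their calls are no support for the count. Without LPS library 2, 13 rose and 5 fell, at 27.5% and 21.5% of all genes. Leaving out LPS library 1 removed 9 of the 16 calls (Klkb1, Proz, F5, F12, Proc, Plau, Plg, Pros1 and Thbd), leaving out LPS library 3 the same ones but Klkb1, Control library 2 removed F5, F12, Proc, Plau, Plg and Thbd, Control library 3 F5, F12, Proc, Plau, Plg and Pros1, Control library 1 Pros1, and LPS+MIC-1 library 1 or 3 Plg and Pros1. F8, F13a1, Vwf and Plat had a mean of 1 FPKM or less in liver and were not tested. Rescaling every library to the same FPKM sum moved the median of all genes from 0.15 to -0.18 and the all-gene calls from 1947 higher and 1573 lower to 1119 higher and 2473 lower, and those of LPS+MIC-1 against Control from 2038 and 1654 to 733 and 3443, so small changes are relative to the scaling.

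**Figure D1:**
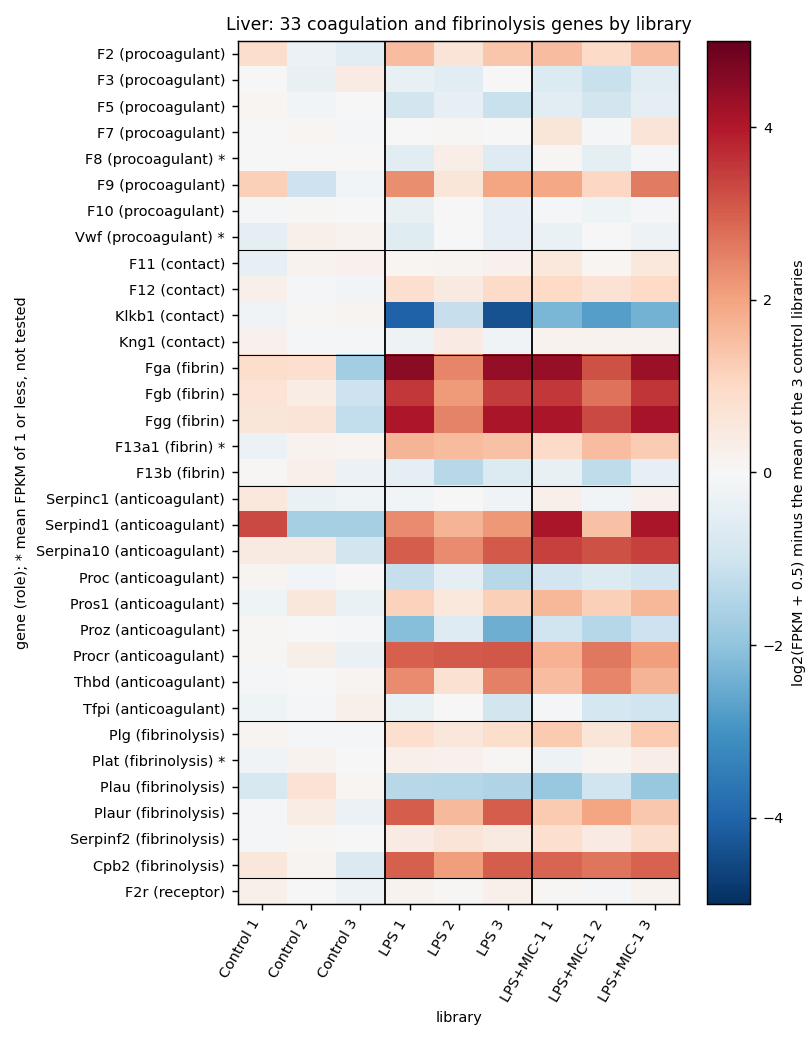
Heat map of the 33 genes (rows, with their role) in the 9 liver libraries (columns), coloured by log2(FPKM + 0.5) minus the mean of the 3 controls. Fga, Fgb, Fgg, Cpb2, Serpina10 and Procr are red in all 6 LPS and LPS+MIC-1 libraries, Klkb1 and Proz are blue in the same 6, and LPS library 2 is paler than LPS libraries 1 and 3 for all of these but Procr.

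Of the 5 genes of fibrin formation, 4 were tested in liver and 3, the fibrinogen genes, rose with LPS, Fga and Fgg by more than any other gene of the set. Fga, Fgb and Fgg encode the Aα, Bβ and γ chains of fibrinogen and lie side by side on chromosome 3 (mm9, chr3:82830075-82838036, chr3:82846169-82853725 and chr3:82811781-82818975). Fga measured 708, 693 and 116 FPKM in the controls, 8881, 2087 and 8074 after LPS and 7780.1, 3497 and 7767 after LPS+MIC-1. Every LPS-exposed library lay above every control, and LPS library 2 was the lowest of the 6. For Fgb the controls read 1825, 1504 and 556, the LPS libraries 13194, 5068 and 13011 and the LPS+MIC-1 libraries 13451, 7583 and 13598 FPKM. Fgg showed 984, 1013 and 278, then 10826, 3666 and 11071, then 10985, 6501 and 11280.0 FPKM. For all 3 chains library 2 was the lowest of both exposed groups, and Control library 3 was the lowest control. Fga rose by 3.79 on the log2 scale (SE 0.81, adjusted p = 0.0111), Fgb by 3.05 on the log2 scale (SE 0.55, adjusted p = 0.00619) and Fgg by 3.54 on the log2 scale (SE 0.61, adjusted p = 0.0054). Without LPS library 2 the log2 changes were 4.46, 3.51 and 4.07. The per-length ratio of Fga to Fgb was 0.388, 0.46 and 0.208 in controls and 0.673, 0.412 and 0.621 with LPS (exact permutation test, two-sided p = 0.2), and that of Fgg to Fgb was 0.539, 0.673 and 0.5 against 0.821, 0.723 and 0.851 (p = 0.1 by the same exact test, the smallest that 3 against 3 allow, among 5 gene pairs computed).

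The 250 bases before the RefSeq start of each fibrinogen gene (GRCm38.p6) are shown because the 3 genes moved together. Capitals mark matches, on either strand, to a STAT motif (TTCNNNGAA), the core of the interleukin-6 response element (TTCCCAG) and a loose C/EBP motif (TTNNGNAA).
Fga, chr3:83025903-83026152, plus strand: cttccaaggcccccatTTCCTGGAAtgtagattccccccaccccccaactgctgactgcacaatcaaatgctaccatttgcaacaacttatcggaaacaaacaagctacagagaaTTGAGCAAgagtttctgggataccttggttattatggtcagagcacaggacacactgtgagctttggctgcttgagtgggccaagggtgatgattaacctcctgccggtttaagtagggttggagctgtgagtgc
Fgb, chr3:83049864-83050113, minus strand: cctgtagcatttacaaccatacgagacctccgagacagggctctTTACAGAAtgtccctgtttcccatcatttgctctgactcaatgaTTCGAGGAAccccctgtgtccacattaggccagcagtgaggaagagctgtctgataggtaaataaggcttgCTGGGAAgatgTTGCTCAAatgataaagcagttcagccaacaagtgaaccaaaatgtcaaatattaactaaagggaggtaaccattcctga
Fgg, chr3:83007474-83007723, plus strand: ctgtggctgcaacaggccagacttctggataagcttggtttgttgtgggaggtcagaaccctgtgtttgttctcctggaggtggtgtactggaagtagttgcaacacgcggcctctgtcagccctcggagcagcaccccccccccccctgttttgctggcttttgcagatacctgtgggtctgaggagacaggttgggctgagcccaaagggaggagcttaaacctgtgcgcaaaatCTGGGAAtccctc
Counting back from the start, Fga has a STAT match at -234 to -226 and a C/EBP match at -135 to -128. Fgb holds a STAT match at -162 to -154, a TTCCCAG match at -91 to -85 and C/EBP matches at -206 to -199 and -80 to -73, and Fgg 1 TTCCCAG match at -13 to -7. Promoters of 25 of the 33 genes were matched (27 promoters, each 250 bases before to 50 after a start), and Proc, Plat, Thbd, Kng1, Serpina10, Vwf, Plg and Plau were not. Over all 32851 promoters 8.3% held the STAT motif, 11.1% TTCCCAG and 40.7% the C/EBP motif, on both strands and counting overlaps, and of the 27 promoters 4 held the first (F9, Fga, Fgb, Pros1), 4 the second (F9, Fgb, Fgg, Tfpi) and 15 the third. An AP-1 motif (TGANTCA) stood in 6 of the 27 against 7.81% of all, the HNF-1 core (GTTAAT) in 5 (F13b, F2, Fga, Fgb, Proz) against 7.1%, and an NF-kB motif in 0 against 4.51%. In F9 the STAT and TTCCCAG matches overlap. A match to these letters is not a binding site.

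The other genes of fibrin formation encode factor XIII. F13b, which encodes the carrier subunit of the fibrin-stabilising factor XIII, measured 30.6, 34.6 and 23.4 FPKM in controls, 20.9, 10.8 and 18 after LPS and 22.6, 11.6 and 21.9 after LPS+MIC-1. All LPS libraries lay below the controls, but the change of -0.85 (SE 0.33) was not called (adjusted p = 0.0755). F13a1, the catalytic subunit, which macrophages and platelets make, read 0, 0.19 and 0.186 FPKM in controls, 1.48, 1.33 and 1.21 after LPS and 0.711, 1.32 and 1.01 after LPS+MIC-1. Every exposed library lay above every control, without a test since the mean was under 1 FPKM.

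Of the 8 procoagulant factors 6 were tested in liver, and F5 was the 1 called with LPS. F5, the cofactor that speeds thrombin formation by factor Xa, read 45.8, 38.9 and 42.7 FPKM in controls, 22.5, 31.8 and 19.1 after LPS and 29, 22.4 and 29.8 after LPS+MIC-1. It fell by 0.81 on the log2 scale (SE 0.22, adjusted p = 0.0238), with all 6 exposed libraries below the controls. F2, which encodes prothrombin, measured 525, 232 and 194, 838, 452 and 751 and 835, 561 and 829 FPKM. Control library 1 was higher than LPS library 2, and the change of 1.19 (SE 0.41) just missed the threshold (adjusted p = 0.0509), while it passed without LPS library 2 (adjusted p = 0.0258) and in LPS+MIC-1 against Control (log2 1.34, SE 0.41, adjusted p = 0.0328). F9, the antihaemophilic factor IX, was widely spread in the controls at 16.1, 3.06 and 6.06 FPKM and read 36.2, 10.6 and 27.8 after LPS and 27.3, 14.5 and 44.2 after LPS+MIC-1 (log2 change with LPS 1.63, adjusted p = 0.0837, and 0.0342 without LPS library 2).

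F7 and F10, the proteases of the first steps of the extrinsic pathway, stayed near their control level with LPS. F7 ranged from 32.3 to 54.1 FPKM and F10 from 194 to 265 FPKM over the 9 libraries, with log2 changes of 0.015 and -0.25. F3, tissue factor, which starts coagulation, was low at 1.61, 1.12 and 2.29 FPKM in controls, 1.15, 0.956 and 1.66 after LPS and 0.806, 0.48 and 0.936 after LPS+MIC-1, from about 10 to 44 reads. Its 3 LPS+MIC-1 libraries lay below all others, yet neither LPS+MIC-1 against LPS (log2 -0.50, adjusted p = 0.997) nor against Control (adjusted p = 0.0698) was called. F8 (factor VIII) and Vwf (von Willebrand factor, its carrier), both known from endothelial cells, ranged from 0.283 to 1.04 and from 0.28 to 0.932 FPKM.

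Of the 4 contact system genes, Klkb1 fell further than any other gene of the set, F12 rose and 2 were not called. Klkb1 encodes plasma prekallikrein, which factor XIIa turns into kallikrein. It measured 125, 146 and 154 FPKM in controls, 8.05, 62.4 and 6.33 after LPS and 28.4, 20.4 and 27.2 after LPS+MIC-1. LPS libraries 1 and 3 were far below the LPS+MIC-1 libraries and LPS library 2 was above them, and none reached the controls. With LPS it fell by 3.20 on the log2 scale (SE 0.72, adjusted p = 0.0126). The log2 change was -4.21 without LPS library 2 (adjusted p = 0.000204), while without LPS library 1 its adjusted p was 0.0501. F11, its neighbour on the same strand of chromosome 8 (mm9, chr8:46326524-46347385, against chr8:46354796-46393820 for Klkb1) and the next protease of the intrinsic pathway, ranged from 29.3 to 56.9 FPKM with a log2 change of 0.14 (SE 0.22). The Klkb1 to F11 ratio was 4.26, 3.31 and 3.38 in controls, 0.194, 1.48 and 0.141 after LPS and 0.5, 0.484 and 0.485 after LPS+MIC-1, with all 6 exposed libraries below the controls (exact permutation test of LPS against Control, p = 0.1, the smallest possible).

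F12, the protease that starts the contact pathway, rose slightly. Its values were 196, 153 and 148 FPKM in controls, 297, 227 and 316 after LPS and 324, 272 and 327 after LPS+MIC-1, with no overlap of controls and exposed libraries and a log2 change of 0.75 (SE 0.20, adjusted p = 0.0241). Kng1, kininogen, the contact cofactor and bradykinin precursor, ranged from 1429 to 2263 FPKM with a log2 change of -0.014. Kng1 has a near-identical mouse copy, Kng2, and pseudoalignment may divide reads between them.

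The anticoagulant genes split. Of 9, 4 rose (Procr, Serpina10, Thbd, Pros1), 2 fell (Proz, Proc) and 3 were not called (Serpinc1, Serpind1, Tfpi). Serpina10 encodes the protein Z-dependent inhibitor of factor Xa and Proz its cofactor, protein Z. Serpina10 measured 83.8, 84 and 31.9 FPKM in controls, 494, 314 and 507 after LPS and 654, 559 and 662 after LPS+MIC-1, while Proz measured 186, 173 and 171, 39.8, 113 and 32 and 87.2, 65.2 and 86.9 FPKM. For both, controls and exposed libraries did not overlap, and the inhibitor rose by 2.81 on the log2 scale (SE 0.38, adjusted p = 0.00259) while its cofactor fell by 1.74 on the log2 scale (SE 0.42, adjusted p = 0.0157). Proz sits behind F7 and F10 on the plus strand of chromosome 8 (mm9, F7 chr8:13026034-13035809, F10 chr8:13037308-13056676, Proz chr8:13060908-13075006). The Proz to F10 ratio was 0.761, 0.654 and 0.65 in controls, 0.201, 0.431 and 0.165 after LPS and 0.35, 0.298 and 0.355 after LPS+MIC-1 (LPS against Control, exact permutation p = 0.1).

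The protein C pathway went in both directions. Proc, protein C itself, fell from 427, 351 and 381 FPKM to 174, 285 and 147 with LPS and read 197, 241 and 199.97 after LPS+MIC-1, with all exposed libraries below the controls (log2 -0.99, SE 0.26, adjusted p = 0.0209). Procr, the endothelial protein C receptor that presents it for activation, was at 0.809, 1.04 and 0.508 FPKM in controls, 9.48, 10.2 and 10.4 after LPS and 3.76, 7.47 and 4.83 after LPS+MIC-1. All 3 LPS libraries, library 2 included, lay close together above the others, and the increase with LPS was 3.06 on the log2 scale (SE 0.26, adjusted p = 0.000432). Thbd, thrombomodulin, which turns thrombin into the activator of protein C, read 0.247, 0.296 and 0.386, 3.6, 0.875 and 4.08 and 1.87, 3.85 and 2.09 FPKM and rose by 1.87 on the log2 scale (SE 0.47, adjusted p = 0.0176). Pros1, protein S, the cofactor of activated protein C, measured 7.71, 13.8 and 7.07, 21, 13.4 and 21.4 and 29.7, 21.7 and 30.2 FPKM. Its Control library 2 overlapped LPS library 2, the change with LPS was small (log2 0.96, SE 0.30, adjusted p = 0.0376), and the LPS+MIC-1 libraries lay above all others (against Control, log2 1.51, SE 0.30, adjusted p = 0.00733).

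Procr and Plaur rose with LPS in liver and were higher with LPS+MIC-1 than in controls in macrophages, as was Thbd, whose promoter was not matched. Procr and Plaur both hold the AP-1 letters TGACTCA, shown in capitals in the 250 bases before their start (GRCm38.p6).
Procr, chr2:155750967-155751216, plus strand: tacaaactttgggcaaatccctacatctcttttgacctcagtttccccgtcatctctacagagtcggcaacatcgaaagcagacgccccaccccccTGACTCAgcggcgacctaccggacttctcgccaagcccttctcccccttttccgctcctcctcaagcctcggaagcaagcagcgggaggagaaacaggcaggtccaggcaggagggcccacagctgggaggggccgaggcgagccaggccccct
Plaur, chr7:24462233-24462482, plus strand: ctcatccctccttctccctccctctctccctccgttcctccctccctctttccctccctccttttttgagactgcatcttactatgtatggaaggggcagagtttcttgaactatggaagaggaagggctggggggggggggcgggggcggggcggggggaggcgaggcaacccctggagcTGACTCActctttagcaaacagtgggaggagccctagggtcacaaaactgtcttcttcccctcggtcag
The match lies at -154 to -148 in Procr and at -69 to -63 in Plaur, and the motif TGANTCA is its own reverse complement. Both genes also hold the loose C/EBP motif, not capitalised here, at -242 to -235 in Procr and at -59 to -52 in Plaur. That motif stood in 15 of the 27 promoters and in 40.7% of all. F2, F2r, F3 and Fgb hold the motif too, and of these 4 Fgb was the 1 called with LPS in liver.

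Serpinc1, antithrombin, the main inhibitor of thrombin and factor Xa, ranged from 541 to 1000.1 FPKM and changed by -0.10 (SE 0.26) with LPS. Serpind1, heparin cofactor II, was listed at 0 in Control libraries 2 and 3 and at 14.9 FPKM in Control library 1, against 7.61, 4.53 and 6.55 after LPS and 25.9, 3.84 and 25.7 after LPS+MIC-1. Such an exact 0 may be a failed estimate, and Asgr1, a hepatocyte receptor, was likewise listed at 0 in Control libraries 2 and 3, LPS library 2 and LPS+MIC-1 library 2 and at 77.1 to 170.1 FPKM in the other 5. Tfpi, the inhibitor of tissue factor and factor VIIa, which endothelial cells make, ranged from 0.541 to 2 FPKM with no call.

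**Figure D2:**
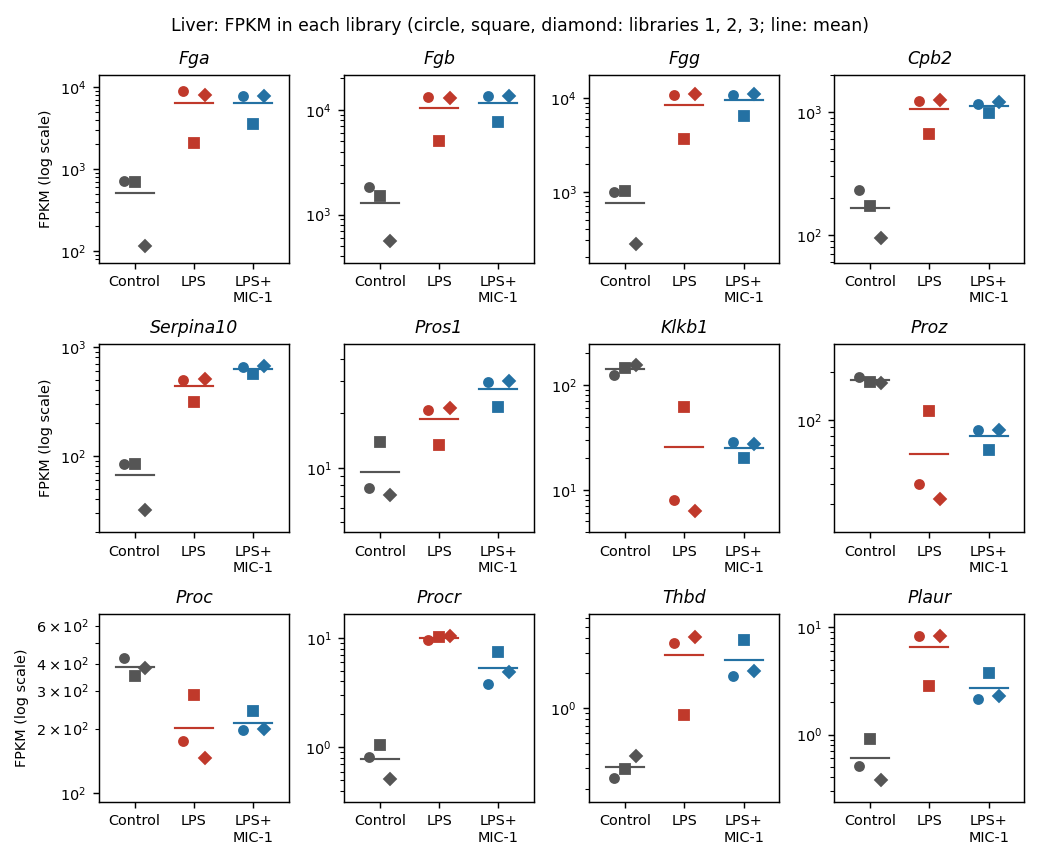
FPKM on log axes of 12 genes in the liver libraries, by group (circle, square and diamond are libraries 1, 2 and 3, the line is the group mean). In the LPS groups the square lies below the circle and diamond for Fga, Fgb, Fgg and Cpb2, and for Klkb1 and Proz the LPS square lies nearest to the controls.

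Of the 6 fibrinolysis genes 5 were tested in liver, and with LPS Cpb2, Plaur and Plg rose, Plau fell and Serpinf2 was not called. Cpb2 encodes the carboxypeptidase TAFI, which protects fibrin from plasmin, and measured 235, 171 and 95.2 FPKM in controls, 1228, 668 and 1269.7 after LPS and 1166, 994 and 1216 after LPS+MIC-1. It rose by 2.69 on the log2 scale (SE 0.37, adjusted p = 0.00262), with every exposed library above every control. Plaur, the uPA receptor, carried on leukocytes, read 0.514, 0.907 and 0.38, 8.34, 2.82 and 8.38 and 2.15, 3.79 and 2.27 FPKM and rose by 2.57 on the log2 scale (SE 0.41, adjusted p = 0.0045). Plau, the activator uPA, was at 1.44, 5.05 and 3.06 FPKM in controls, 0.79, 0.752 and 0.697 after LPS and 0.412, 1.17 and 0.401 after LPS+MIC-1, and fell by 1.44 on the log2 scale (SE 0.41, adjusted p = 0.0297). It passed the filter on low values through the controls, where it was high, so its call is no support for the count, and with no filter its adjusted p was 0.041. The controls spread widely, every exposed library lay below the lowest of them, and the values rest on about 12 to 62 reads per library.

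Plg, plasminogen, the precursor of plasmin, measured 439, 372 and 383, 715, 586 and 737 and 976, 603 and 981 FPKM, no overlap between controls and exposed libraries, and rose by 0.77 on the log2 scale (SE 0.24, adjusted p = 0.0379). That call held in 3 of the 9 fits that each left out 1 library, as did that of Pros1. Serpinf2, alpha-2-antiplasmin, the plasmin inhibitor, read 326, 355 and 342, 457, 528 and 465 and 617, 455 and 628 FPKM. All exposed libraries lay above the controls, with no call for LPS (log2 0.50, adjusted p = 0.0713) and a call for LPS+MIC-1 against Control (log2 0.72, SE 0.19, adjusted p = 0.0206). Plat, the activator tPA, was at 0.0861 to 0.394 FPKM from about 3 to 14 reads and was not tested. F2r, the thrombin receptor PAR1, ranged from 5.78 to 8.55 FPKM and was not called.

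Adding MIC-1 to LPS moved no gene of the set past the threshold in liver. All 29 were uncalled, as were all 10147 genes (0% called by limma, 364 genes with an unadjusted p below 0.05), and 2 of the 29, Procr and Plaur, had an unadjusted p below 0.05, both with lower values. Procr was lower in all 3 LPS+MIC-1 libraries than in any LPS library, with a log2 change of -0.90 (SE 0.26, adjusted p = 0.997), and Plaur had -1.01 (SE 0.41). The fibrinogen genes gave log2 values of 0.17, 0.22 and 0.29 with SE of 0.81, 0.55 and 0.61. These standard errors leave room for changes in either direction.

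Leaving out LPS library 2 called Klkb1 alone, higher with LPS+MIC-1 than with LPS by 1.74 on the log2 scale (SE 0.20, adjusted p = 0.0317), against 0.355% of all genes called in either direction. Proz (log2 1.14, adjusted p = 0.0621) and Plaur (-1.49, 0.0899) came next. Against these 2 LPS libraries, all 3 LPS+MIC-1 libraries lay above both for 8 of the 29 genes and below both for 6, with 20.3% and 25.2% of all genes so placed. These counts are near the shares of all genes. For Klkb1, Proz, Plaur, Proc, Procr, Fga and Cpb2 the LPS+MIC-1 values lay between those of these 2 LPS libraries and the controls. For Serpina10 and Pros1, which rose with LPS, they lay farther from the controls than both LPS libraries. With LPS library 2 included, LPS and LPS+MIC-1 overlapped for Klkb1, Proz, Plaur, Proc, Fga and Cpb2 (mean Klkb1 25.6 and 25.3 FPKM). Procr stayed below all LPS libraries, and Serpina10 and Pros1 stayed above them, none of them called. The same 2 LPS libraries set both the change with LPS and this placing. LPS+MIC-1 library 2 differed from libraries 1 and 3, being the lowest of the 3 for the fibrinogens and the highest for Procr, Thbd and Plaur, and Cd14 read 407 FPKM in it against 56.7 and 61.4 in libraries 1 and 3.

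Compared with Control, LPS+MIC-1 gave 13 genes higher and 4 lower of the 29, at 20.1% and 16.3% of all genes. This comparison shares its controls with LPS against Control. The limit from the filter on mean FPKM, given above for Procr, Plaur, Thbd and Plau, holds here too. Fga, Fgb and Fgg differed from Control by log2 3.95, 3.28 and 3.83, Serpina10 by 3.35, Cpb2 by 2.84, Procr by 2.16 and Plaur by 1.55. On the lower side stood Klkb1 (-2.47), Plau (-1.60), Proc (-0.86) and F5 (-0.65), and Proz missed the threshold (log2 -1.15, adjusted p = 0.059, and 0.00237 without LPS library 2).

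**Figure D3:**
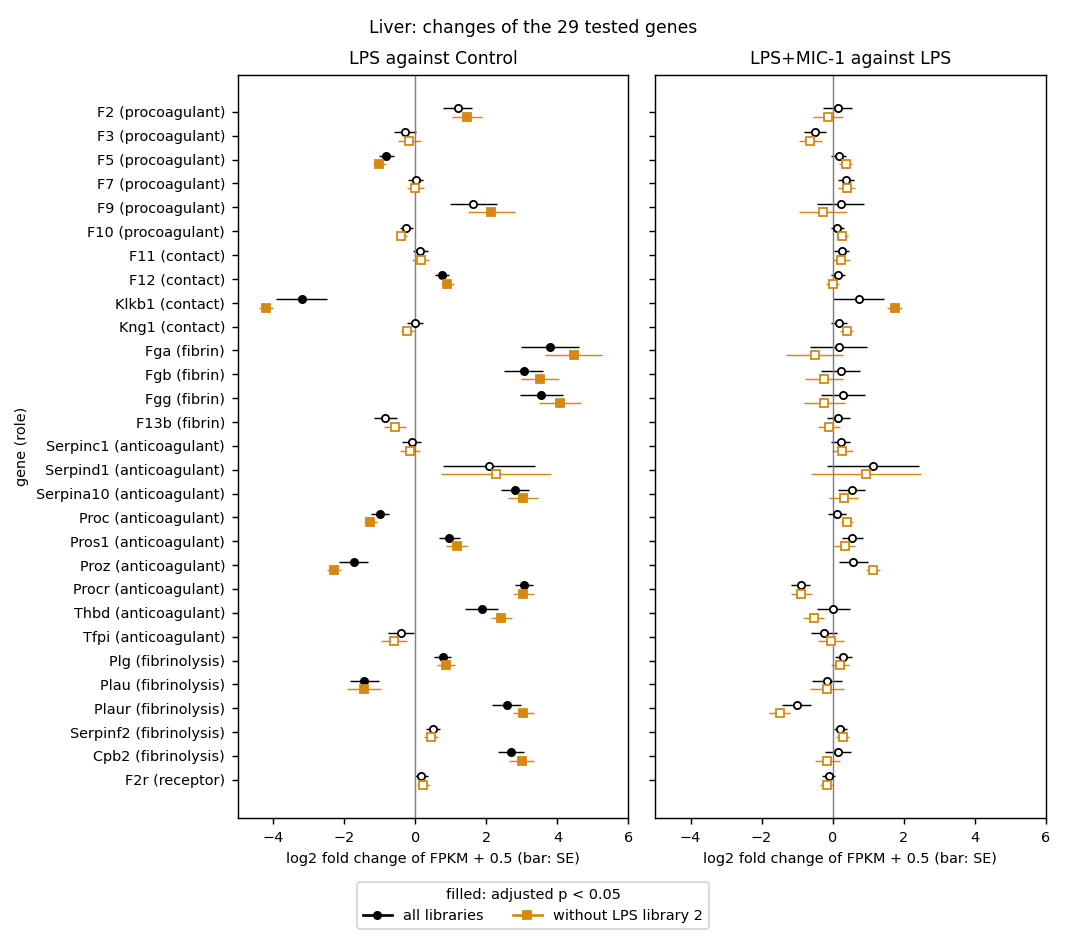
Log2 fold changes (points) with SE (bars) of the 29 genes tested in liver, for LPS against Control (left) and LPS+MIC-1 against LPS (right), with all libraries (black) and without LPS library 2 (orange), filled where the adjusted p is below 0.05. On the left 16 black points are filled, from Klkb1 at -3.20 to Fga at 3.79, and on the right Klkb1 without LPS library 2 is the 1 filled point.

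The RAW264.7 macrophages expressed few of these genes. Of the 33, 7 had a mean FPKM above 1 (Procr, Plaur, Plau, Pros1, Thbd, F9 and Fgb), and the other 26 did not. Thbd passed the filter through its LPS+MIC-1 libraries, the other groups lying below 1 FPKM. Hepatocyte-made genes were near the floor, with 1 read on a transcript of 2 kb worth about 0.023 to 0.040 FPKM. Alb, the hepatocyte marker, read 1.09 to 5.46 FPKM in these libraries, and Fga, Fgb and Fgg ranged from 0.199 to 1.59, 0.633 to 2.18 and 0.411 to 1.89 FPKM. LPS library 1 was the highest of the 9 for Alb and for all 3 fibrinogen chains, and the part of hepatocyte RNA in these values was not tested. Tissue factor (F3) read 0, 0 and 0.0498 FPKM in controls, 0.252, 0.053 and 0.118 after LPS and 1.08, 0.379 and 0.763 after LPS+MIC-1, so its 3 LPS+MIC-1 libraries were the highest, without a test since the mean was under 1 FPKM. The other 23 untested genes stayed at or below 0.945 FPKM in every library.

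With LPS alone, none of the 7 genes was called, nor was any of the 9905 tested genes (0% by limma, although 4928 had an unadjusted p below 0.05), with LPS library 2 in the fit. Without that library 3 of the 7 rose and 2 fell, against 36.9% and 38.2% of all genes. Procr measured 5.62, 14.9 and 6.75 FPKM in controls and 137, 14.8 and 132 with LPS. LPS libraries 1 and 3 were far above the controls and library 2 among them, giving a log2 change of 2.89 (adjusted p = 0.0777) with it and 3.94 (SE 0.34, adjusted p = 2.58e-05) without it. Plaur read 32.8, 41 and 32.8 and 109.7, 37.7 and 104 FPKM, with 1.09 (adjusted p = 0.0777) and 1.58 (adjusted p = 6.88e-06). Plau went from 63.9, 53.3 and 62.1 to 89.1, 52.8 and 92.8 FPKM (without library 2, log2 0.61, adjusted p = 0.00136). All FPKM summed to 1137533, 598270 and 1132904 in the LPS libraries and to 562735, 592848 and 557136 in controls. Rescaling to the same sum, with all libraries in the fit, moved the all-gene median for LPS against Control from -0.025 to -0.65. A change as small as that of Plau is therefore relative to the scaling.

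The falls were in protein S and thrombomodulin. Pros1 was at 15.4, 16.1 and 14.6 FPKM in controls and 7.16, 17.4 and 7.23 with LPS, where library 2 exceeded every control (without it, log2 -1.04, adjusted p = 0.0046). Thbd read 0.456, 0.595 and 0.574 and 0.142, 0.357 and 0.304 FPKM, with all 3 LPS libraries below the controls, at -0.45 (adjusted p = 0.111) with all libraries and -0.53 (adjusted p = 0.0325) without library 2. F9 and Fgb were not called either way.

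In macrophages given LPS+MIC-1, Thbd, Plaur and F9 were called against both other groups, Procr, Pros1 and Plau against 1 of them, and Fgb against neither. Against LPS, Thbd and Plaur were higher and F9 and Plau lower, 2 and 2 of the 7 genes against 10.2% and 11.4% of all genes, and without LPS library 2 Procr joined the higher genes, 3 and 2 against 34% and 34.1%. Thbd reached 4.6, 3.41 and 4.51 FPKM, above every other library, 2.61 on the log2 scale (SE 0.20, adjusted p = 0.000553) over LPS. Because it entered the fit through these libraries, its call is no support for the count, and with no filter on low values its adjusted p was 0.000633. Plaur reached 258, 243 and 246 FPKM, 1.72 on the log2 scale (SE 0.37, adjusted p = 0.0163), and Procr 354, 410.2 and 350.0 FPKM, which is 2.505 above LPS on the log2 scale (adjusted p = 0.0572, and 1.46 with adjusted p = 0.00631 without library 2). For all 3 receptors the LPS+MIC-1 libraries lay above every LPS library. Rescaling to the same FPKM sum moved the all-gene calls from 1011 higher and 1130 lower to 1228 higher and 354 lower.

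Plau was at 40.5, 49 and 41.2 FPKM with LPS+MIC-1, below every LPS library (log2 -0.80, SE 0.22, adjusted p = 0.0365), and F9 at 0.445, 0.698 and 0.531 FPKM (log2 -0.997, SE 0.21, adjusted p = 0.0165), the latter from about 23 to 92 reads. F9 passed the filter on mean FPKM through its Control and LPS groups (means 1.51 and 1.64 FPKM, against 0.558 with LPS+MIC-1). Its calls against either group are therefore no support for the counts. Pros1 read 7.75, 3.89 and 6.84 FPKM and was not called against LPS (log2 -0.67, adjusted p = 0.211). Fgb ranged over the levels given above and was not called. Leaving out any 1 library other than LPS library 2 removed the call for Plau, that for F9 was lost without LPS library 3, LPS+MIC-1 library 1 or LPS+MIC-1 library 3, and that for Plaur without LPS+MIC-1 library 1 or 3.

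Against Control, LPS+MIC-1 had 3 genes higher (Procr, Plaur, Thbd) and 2 lower (Pros1, F9) of the 7, with 11.8% and 13% of all genes called. Procr was 5.40 on the log2 scale (SE 0.80, adjusted p = 0.00337) above Control, the largest change of the set in either tissue, Plaur 2.80 on the log2 scale (SE 0.37, adjusted p = 0.00217) and Thbd 2.16 on the log2 scale (SE 0.20, adjusted p = 0.000622). Pros1 fell by 1.30 on the log2 scale (SE 0.36, adjusted p = 0.0338) relative to Control, and F9 fell by 0.93 on the log2 scale (SE 0.21, adjusted p = 0.0178). The call for Pros1 was lost without any 1 of the 6 Control or LPS+MIC-1 libraries, and that for F9 without any of these but LPS+MIC-1 library 2. Single genes of 2 marker lists of other cells moved with the same group in this macrophage line. The neutrophil list summed to 2.43 to 3.51 FPKM in controls, 4.88 to 41.6 with LPS and 654 to 721 with LPS+MIC-1. S100a8 made up nearly all of the last, while S100a9, Mpo, Elane and Retnlg stayed at or below 0.482 FPKM in every library. The platelet list summed to 10.3 to 19.6, 10.3 to 20.5 and 48.8 to 109, of which Pf4 made up nearly all, and P2ry12 was listed at 0. Whether S100a8 and Pf4 relate to the changes of Procr, Plaur and Thbd was not tested.

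**Figure D4:**
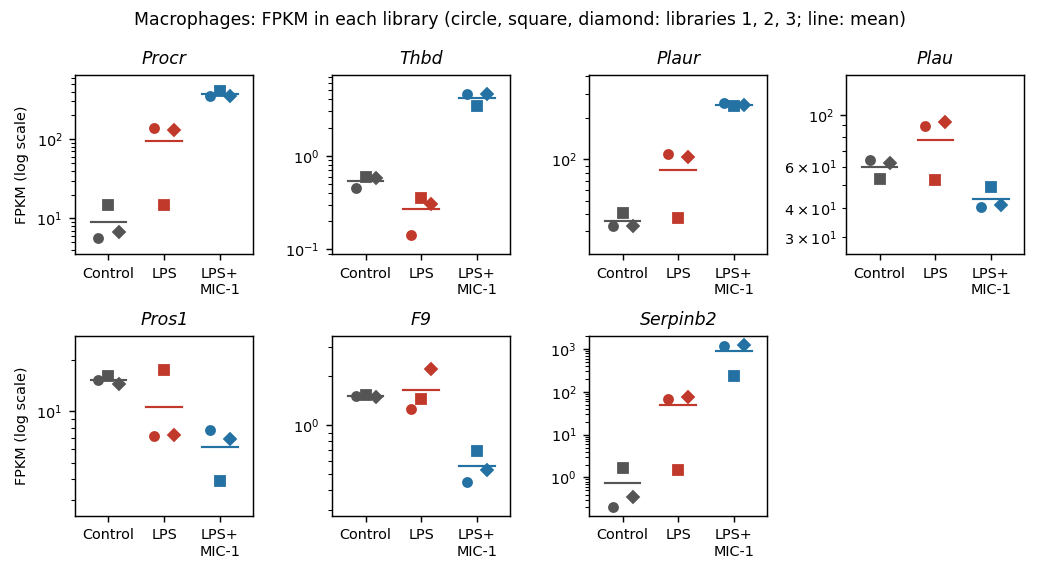
FPKM on log axes of 6 genes of the set and of the inhibitor Serpinb2 in the macrophage libraries, by group (circle, square and diamond are libraries 1, 2 and 3, the line is the group mean). The LPS square lies among or near the controls for Procr, Plaur, Pros1 and Serpinb2, and the LPS+MIC-1 points of Procr, Thbd and Plaur lie above all other points.

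A wider list of 31 haemostasis genes gave the surroundings. In liver 25 were tested, of which 10 rose and 1 fell with LPS, against 19.2% and 15.5% of all genes, and none was called for LPS+MIC-1 against LPS. Among those that rose were A2m, the broad protease inhibitor alpha-2-macroglobulin (log2 change 4.53), Fgl1, a fibrinogen-like liver protein (3.50), Tgm2, a transglutaminase (3.13), and Gas6, a relative of protein S (1.98). F2rl2 was the gene that fell, named here after its value was seen. It passed the filter on mean FPKM through the controls (means 2.38, 0.669 and 0.545 FPKM in Control, LPS and LPS+MIC-1). Its call is therefore no support for the count, and its values rest on about 8 to 46 reads per library.

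In macrophages 14 of the 31 were tested. None was called for LPS against Control with all libraries (8 had an unadjusted p below 0.05, all higher), and 10 higher and 1 lower were called without LPS library 2, against 36.9% and 38.2% of all genes. For LPS+MIC-1 against LPS, 2 were higher and 3 lower, against 10.2% and 11.4% of all genes, and without LPS library 2 these became 3 and 9, against 34% and 34.1%. Serpinb2, PAI-2, an inhibitor of uPA, measured 0.205, 1.65 and 0.35 FPKM in controls, 69.3, 1.51 and 75.8 after LPS and 1204, 239 and 1274 after LPS+MIC-1 (over LPS, log2 5.02, SE 1.38, adjusted p = 0.0378), and Mcfd2, which helps carry factors V and VIII out of the cell, differed by 0.42 on the log2 scale. Gas6 (log2 change -1.89), the scavenger receptor Lrp1, which clears protease and inhibitor complexes (-1.25), and the plasminogen-binding S100a10 (-0.64) were lower.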

How the data were processed

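The authors quantified reads with kallisto 0.45.0 against a RefSeq transcript index of mm9, summed them per gene with tximport and had DESeq2 1.20.0 write the deposited FPKM values, per the labels and the study's methods. The authors' tables of comparisons (fold changes and p-values) were not used. Column headers give each library's treatment only, and libraries were numbered in table order within a group. The study describes 1 LPS macrophage library fewer, without naming it.

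Each tissue was analysed alone with limma 3.58.1 in R 4.3.3 on log2(FPKM + 0.5), all 3 groups in 1 fit with a mean-variance trend, genes with a mean FPKM above 1, and Benjamini-Hochberg adjustment over all tested genes. No minimum fold was set. The script was tested on simulated data. Reads were estimated from the spacing of low FPKM, of which 79.7% to 82.3% lay within 0.15 of a whole read, so depths are approximate. The closest pair was libraries 2 and 3 in the liver controls and libraries 1 and 3 in every other group. Between LPS libraries 1 and 3 the log2 difference had a standard deviation of 0.303 in liver and 0.132 in macrophages. For LPS pairs with library 2 it was 0.958 and 0.965 in liver and 1.17 and 1.18 in macrophages. Closest pairs still differed beyond sampling noise and were counted separately, which does not show that they are independent. Fits without LPS library 2 rest on such a pair. Liver libraries came from separate mice, and whether macrophage libraries are separate cultures is not stated, so there p-values measure only the spread between these libraries.

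The members and lists were chosen with earlier results of these data known. Per-library values are given for members called in a tissue and ranges for most others, and of the wider list the 5 genes with the largest called changes, of which 1 is not reported here. Marker lists summed FPKM per library. Gene positions are from GENCODE M1 (mm9) and promoters from RefSeq (GRCm38.p6). For single ratios an exact permutation test of 3 against 3 cannot go below p = 0.1, two-sided. Figures were drawn with matplotlib 3.10.9. Alternatives were other pseudocounts, filters, scalings and thresholds, 2 groups per fit, and leaving out each library.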

Additional observations from a re-analysis of the deposited data

Results flagged for a closer look

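Among the 7 genes tested in both tissues, in 3 cases every library of 1 group lay on one side of the comparison group in liver and on the opposite side in macrophages. Over all tested genes, for LPS+MIC-1 against Control, 30.5% lay above and 24.1% below in liver, and 31.4% and 34.9% in macrophages. For LPS against Control the shares were 24.2% and 20.8%, and 16.1% and 17.2%. For LPS+MIC-1 against LPS they were 5.1% and 4.64%, and 17.9% and 18.2%. The share on opposite sides in the 2 tissues was not computed, so the 3 cases are no result about the set. The difference between the tissues was not tested, because the tables were normalised separately. Thbd, with LPS against Control, had a log2 change of 1.87 (SE 0.47) in liver and -0.45 (SE 0.20) in macrophages. Procr, with LPS+MIC-1 against LPS, had -0.90 (SE 0.26) in liver and 2.51 (SE 0.80) in macrophages. For Pros1, with LPS+MIC-1 against Control, the values were 1.51 (SE 0.30) in liver and -1.30 (SE 0.36) in macrophages. In macrophages the Pros1 value was called in 3 of the 9 fits that each left out 1 library, and the other macrophage values named here were not called with all libraries. F3, F5, Proc and Serpinf2, with a mean under 1 FPKM in macrophages and not tested there, also lay on opposite sides for LPS+MIC-1 against Control. F3 did so for LPS+MIC-1 against LPS too. In macrophages these values rest on about 0 to 36 reads per library for F3, 0 to 6 for F5, 0 to 2 for Proc and 3 to 5 for Serpinf2. At so few reads, the placing of F5, Proc and Serpinf2 there cannot be told from noise. With 3 libraries a group, no formal outlier test was run, and LPS library 2, which stood apart from LPS libraries 1 and 3 in both tissues, was left out in the fits given beside the results.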

How the results depend on the processing

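With all libraries, 16 genes were called for LPS and 17 for LPS+MIC-1 against Control in liver and 0, 4 and 5 in macrophages (LPS against Control, LPS+MIC-1 against LPS, LPS+MIC-1 against Control). At an adjusted p below 0.01 and a log2 change above 1 these became 6 and 7 in liver and, for the latter pair, 1 and 3 in macrophages. A log2 change above 1 at 0.05, or fitting only the compared groups, left 2 and 1 for LPS+MIC-1 against LPS in macrophages. Averaging the closest pair of libraries of each group, chosen after seeing the data, left 2 (Procr and Serpina10) and 2 in liver and 0 and 0 in macrophages, with fewer samples in the fit. Leaving out 1 library gave 7 to 18, 0 to 1 (LPS+MIC-1 against LPS) and 8 to 19 in liver and 0 to 5, 1 to 5 and 3 to 6 in macrophages. LPS in liver fell to 10 without Control library 2 or 3, 7 without LPS library 1 and 8 without LPS library 3, and LPS+MIC-1 against Control to 11, 10, 11 and 8 without Control libraries 2 and 3 and LPS+MIC-1 libraries 1 and 3. In every such fit Fga, Fgb, Fgg, Cpb2, Serpina10, Procr and Plaur stayed called for LPS in liver (7 of 16). Thbd did so for LPS+MIC-1 against LPS in macrophages, where it had passed the filter through its LPS+MIC-1 libraries. Procr and Plaur had passed the filter in liver through their LPS and LPS+MIC-1 libraries. Pseudocounts of 0.1 and 1 changed no gene's call. Rescaling to the same FPKM sum reversed F2r for LPS+MIC-1 against Control in liver (-0.56, now called, from 0.056), and over the tested genes of the set (29 in liver, 7 in macrophages) and all alternatives, of 2052 values 1823 kept their direction and side, 193 lost a call, 35 gained one and 1 reversed. No paired analysis was possible because the columns of the tables carry no replicate number. In liver the shallow controls limit genes of low FPKM most. Other causes were not tested.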
